A study of Mus musculus with 20 samples.

Results

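GATA6-bound regions that lie at gene promoters were described here by how open their chromatin was before, during and after induction of GATA6. A bound region was counted as a promoter region when its midpoint lay within 1000 bases of a transcription start of a protein-coding transcript (GENCODE vM21, mm10). This gave 3147 of the 42403 regions in the deposited table, or 7.42%, at 2830 genes by nearest start, and 209 of them (6.64%) lay that close to starts of more than 1 gene. On the 2 sides of the limit, the regions of Lrrc8b, Pcmt1 and Slc28a2 had midpoints 1000, 999.5 and 999 bases from a start, with 0.114, 0.311 and 0.0238 RPM at d0 and 0.103, 0.415 and 0.249 RPM at day 4. Just outside it, the regions of Tctex1d1, Elovl5 and Tmbim7, at 1000.5, 1000.5 and 1002 bases, held 0.0269, 0.0296 and 0.0388 RPM at d0 and 0.0335, 0.0936 and 0.193 RPM at day 4.

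The assay was ATAC-seq, in which the transposase Tn5 cuts exposed DNA and tags it with sequencing adapters. The 17 KH2 samples are mouse ES cells of a C57BL/6 x 129/Sv background that carry a doxycycline-inducible cassette of the Gata6 reading frame with a triple HA tag, grown with LIF on mitomycin-treated MEF feeders. They fall into 6 groups: d0 without doxycycline (3 samples), and 8 h, 16 h, day 1, day 2 (3 samples each) and day 4 (2 samples) after addition of 1 µg/mL doxycycline. The study selected 2 independent clones and describes the samples of a group as independent cultures, from which feeders were removed by adsorption before transposition. All KH2 groups, d0 included, carry the cassette. The XEN cells (3 samples) are an established line derived from extraembryonic endoderm. They are wild type, of CD1 strain, untreated and grown without LIF, so that strain, culture and cell type cannot be told apart in any comparison with them. Samples with 8 h, 16 h, day 1, day 2 and day 4 in their titles, which were used here, have 16, 24, 48, 72 and 96 h in the treatment field.

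Promoters hold the sites where RNA polymerase II starts transcription. In mammals many promoters, among them those of most housekeeping genes, are rich in CpG dinucleotides and stay nucleosome-poor in every cell type, while CpG-poor promoters are more often open only in the cells that use them. GATA6 is a zinc finger transcription factor that binds GATA motifs, can bind closed chromatin, and drives the formation of primitive endoderm, the lineage that gives rise to the yolk sac endoderm and that XEN cells represent in culture. In ES cells it works against the network of pluripotency transcription factors (PTFs: OCT4, SOX2, ESRRB). The study also reports that GATA6 keeps PTFs at its sites for a time and redirects OCT4 and SOX2 to new ones. It concludes that OCT4 in turn promotes the binding of GATA6 at a subset of regions.

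The sequences below, from the plus strand of the RefSeq mouse genome (GRCm38.p6, mm10), show the promoters with the largest changes of accessibility, a promoter each of an endoderm factor and of Oct4 (Pou5f1), and 2 for contrast, chosen after the values were seen. Capitals mark the best GATA6 motif that the authors found in a region, and any GATAA or its complement. Windows were centred on that motif, or on the summit of GATA6 binding where the region had none, and were shifted or cut where they would have left the bound region or entered transcribed leader sequence, except where a motif lay there. Scoc (chr8:83458453-83458652), Focad (chr4:88400365-88400577) and Srgn (chr10:62527452-62527651) rose most between 8 h and day 4. Mup6 (chr4:59963942-59964141), Pcolce (chr5:137613812-137614011) and Nanog (chr6:122707257-122707456) fell most. Hnf4a (chr2:163506608-163506814) encodes an endoderm factor and Pou5f1 (chr17:35505138-35505337) the core PTF OCT4. Scp2 (chr4:108145148-108145347) held the best GATA6 motif among promoter regions that were higher at day 4, and Rps19 (chr7:24884013-24884212) was the ribosomal protein promoter with the highest level at d0.
Scoc: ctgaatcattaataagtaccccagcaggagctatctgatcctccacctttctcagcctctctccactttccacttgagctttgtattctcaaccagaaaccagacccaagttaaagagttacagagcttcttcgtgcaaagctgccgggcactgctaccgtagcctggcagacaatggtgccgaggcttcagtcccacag
Focad: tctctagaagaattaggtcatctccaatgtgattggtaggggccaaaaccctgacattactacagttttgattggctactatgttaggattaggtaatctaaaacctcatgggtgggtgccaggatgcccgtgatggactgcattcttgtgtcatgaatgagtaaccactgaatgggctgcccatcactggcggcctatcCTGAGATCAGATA
Srgn: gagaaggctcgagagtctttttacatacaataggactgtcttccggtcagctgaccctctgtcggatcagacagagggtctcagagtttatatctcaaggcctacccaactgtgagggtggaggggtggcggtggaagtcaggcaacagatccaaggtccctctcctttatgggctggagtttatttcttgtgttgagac
Mup6: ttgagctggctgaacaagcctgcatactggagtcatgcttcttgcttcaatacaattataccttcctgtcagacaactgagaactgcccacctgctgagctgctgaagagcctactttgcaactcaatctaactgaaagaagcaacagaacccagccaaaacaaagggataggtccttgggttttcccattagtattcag
Pcolce: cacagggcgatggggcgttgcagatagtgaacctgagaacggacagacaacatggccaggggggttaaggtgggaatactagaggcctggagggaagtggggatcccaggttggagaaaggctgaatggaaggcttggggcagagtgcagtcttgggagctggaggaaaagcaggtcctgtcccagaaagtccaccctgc
Nanog: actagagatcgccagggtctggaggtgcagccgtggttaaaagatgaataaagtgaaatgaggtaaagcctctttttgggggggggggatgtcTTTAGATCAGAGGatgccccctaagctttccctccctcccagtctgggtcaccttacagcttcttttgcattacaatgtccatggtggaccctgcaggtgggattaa
Hnf4a: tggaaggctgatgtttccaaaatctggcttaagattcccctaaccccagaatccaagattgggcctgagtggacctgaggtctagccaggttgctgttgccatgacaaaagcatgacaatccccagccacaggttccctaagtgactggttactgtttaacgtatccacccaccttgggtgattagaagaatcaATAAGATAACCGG
Pou5f1: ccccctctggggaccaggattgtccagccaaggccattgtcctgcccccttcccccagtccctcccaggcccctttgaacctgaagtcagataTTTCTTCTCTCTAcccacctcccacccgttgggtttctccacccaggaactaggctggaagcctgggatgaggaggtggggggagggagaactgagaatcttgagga
Scp2: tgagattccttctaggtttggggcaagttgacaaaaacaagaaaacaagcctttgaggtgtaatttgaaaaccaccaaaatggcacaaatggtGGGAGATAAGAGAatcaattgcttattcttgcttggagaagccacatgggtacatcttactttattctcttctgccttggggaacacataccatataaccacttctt
Rps19: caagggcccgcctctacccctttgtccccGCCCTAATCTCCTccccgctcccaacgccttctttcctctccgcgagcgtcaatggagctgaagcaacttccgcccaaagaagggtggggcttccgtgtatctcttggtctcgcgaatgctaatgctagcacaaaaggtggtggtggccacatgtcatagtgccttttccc

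Of these 10 regions, those of Scoc, Srgn, Mup6 and Pcolce had no GATA6 motif in the deposited table, so that both the largest rises and the largest falls included promoters without one. The Scp2 window has a full GATAA with a motif score of 15.2, whereas the motifs at Nanog and Focad scored 7.04 and 8.24. The Rps19 window holds 11 CpG dinucleotides, against 0 in the Scp2 and Mup6 windows and at most 4 in the other windows.

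The table gives 1 ATAC column per group, an average over its libraries in RPM (reads scaled to a common library size). At 24753 regions the averages kept enough digits to return the whole reads of each library, and 1927 of the 3147 promoter regions were among them. The XEN average resolved into 2 libraries, not the 3 labelled. The column named d0 differed by at most 6.04e-15 of its value from the mean of 9 libraries, namely the 3 of 8 h, the 3 of 16 h and 3 others. Those 3 were taken as d0 from the name of the column, since they occur in no other, and d0 was recomputed from them for all levels below. Library size was 181 to 288 M reads, except for 43.3 M in 1 of the XEN libraries, and the median promoter region held 37 to 126 reads per library, against 10 in that XEN library. Every value includes 1 added read. Libraries within a group differed in overall level: the second 8 h library had a median of 0.353 RPM over promoter regions, against 0.195 RPM in the lowest of that group. Between 8 h and day 4 the median of these 24753 regions rose by 0.51 on the log2 scale, so calls are given both on the deposited scale and after each library was centred on its own median over all regions (centred). Of 22 genes listed as markers of feeder fibroblasts, 3 had a promoter region, and their averages at d0 and day 4 were 0.0505 and 0.0622 RPM for Thy1, 0.0545 and 0.0289 RPM for Postn, and 0.466 and 0.754 RPM for Vim, which endodermal cells express too. In bulk samples a larger share of open cells and more open chromatin per cell cannot be told apart.

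Promoter regions were far more often open before GATA6 was induced than other bound regions. The authors' class at d0 was accessible for 1053 promoter regions (33.5%) and closed for 601 (19.1%), against 7.43% and 61.3% of all regions. The limits of that class were not given in the sources used here, and it may rest on the deposited d0 column. Promoter-type histone marks in ES cells were assigned to 1775 promoter regions (56.4%, against 6.88% of all regions), and marks of facultative heterochromatin to 6.16% (22.3% of all). The median promoter region had 0.233 RPM at d0, against 0.0571 RPM for the median of all regions.

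In binding pattern, promoter regions were close to the table as a whole. GATA6 binding was of the Transient cluster at 1353 promoter regions (43%, against 38.4% of all regions), Late at 994 (31.6% and 33.6%) and Early&Constant at 800 (25.4% and 28%). SOX17, the endoderm factor that the study followed together with GATA6, was bound at 44.4% of promoter regions and 44.5% of all. PTFs were bound at d0 at 17.9% of promoter regions (20.8% of all) and only after induction, or ectopically, at 18.4% (16.6%). Knockdown of Oct4 left GATA6 binding unchanged at 93.1% of promoter regions and at 85.2% of all, as classified by the authors.

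Promoter regions were richer in GC and CpG than the other regions. They had a median GC content of 51.5%, against 44.9%, and a median ratio of observed to expected CpG of 0.469, against 0.187. CpG-rich regions (ratio at least 0.6 with GC at least 50%) made up 929 of the promoter regions, or 29.5%, and 2.66% of all regions. No GATA6 motif was recorded for 576 promoter regions (18.3%), against 10.3% of all regions, and this share was 33.3% for CpG-rich and 12% for CpG-poor promoter regions. In the 300 bases around the GATA6 summit, searched on both strands, GATAA occurred in 67.9% of promoter regions and 79.7% of all regions, and ATTGT, the core of SOX sites, in 37.1% and 55.3%. TATAAA occurred in 8.04% and 13.1%, and CCAAT in 33.9% and 32.5%. GGGCGG, the core of the GC box, was found in 33.3% of promoter regions against 8.76% of all, and CCGGAAG, an ETS site, in 7.24% against 1.9%. Within promoter regions GATAA was found in 53.1% of CpG-rich and 74.2% of CpG-poor ones, and GGGCGG in 65% and 20%. GGGCGG itself adds to CpG and GC content, so these shares are not independent of the split.

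Accessibility at d0 also depended on where GATA6 was bound relative to the start. The median level was 0.301 RPM for the 1393 regions whose summit lay under 250 bases away, 0.236 RPM for 652 regions at 250 to 500 bases and 0.128 RPM for 1006 regions at 500 to 1000 bases. The 96 regions with a summit still farther out had 0.333 RPM. Median changes from d0 to day 4 were 0.92, 0.78, 0.72 and 0.58 on the log2 scale in the same order. Within 250 bases, 971 upstream summits had a median of 0.318 RPM and 422 downstream summits 0.279 RPM.

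On the deposited scale promoter regions gained accessibility during induction, with the highest levels at day 2. Their median level was 0.251 RPM at 8 h, then 0.286, 0.337, 0.510 and 0.398 RPM in the 4 later groups in order of time, and 0.248 RPM in XEN cells. As median log2 change from the recomputed d0 these were 0.13, 0.27, 0.48, 1.03, 0.82 and 0.24, where all 42403 regions gave 0.23, 0.28, 0.48, 0.89, 0.75 and 0.69. Up to day 4 promoter regions thus moved by about as much as all regions, while in XEN cells their change was smaller. Against the deposited d0 column, which mixes in 8 h and 16 h libraries, the median change of promoter regions was 0.67 at day 4. With columns centred on their medians it was 0.11 at day 4 and -0.43 in XEN cells, so that the direction in XEN cells turned. In centred single libraries the median change from the recovered d0 was -0.12 at day 2 and -0.03 at day 4. All recovered regions gave -0.24 and -0.12. From 8 h it was 0.11 at day 2 and 0.20 at day 4, against -0.11 and -0.02 for all recovered regions. After centring the median promoter region thus showed no gain over d0 and no peak at day 2. It still stood above the median change of all recovered regions at both times.

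**Figure D1:**
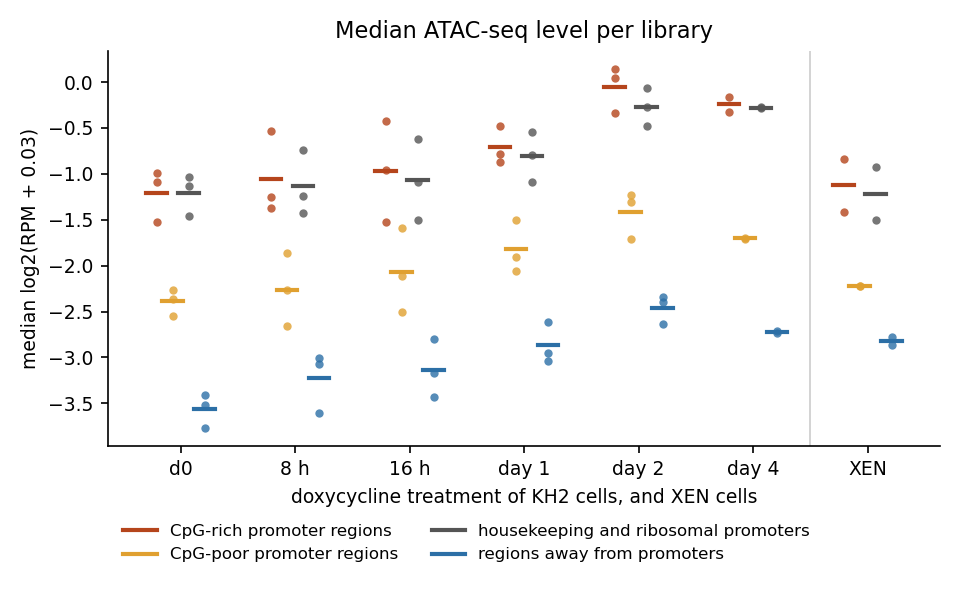
Median accessibility per library, as log2(RPM + 0.03), for CpG-rich promoter regions, CpG-poor promoter regions, promoter regions of housekeeping and ribosomal protein genes, and regions away from promoters, with 1 point for each of the 19 libraries by group. CpG-rich regions reached 0.76 to 1.08 RPM at day 2 and 0.769 and 0.866 RPM at day 4, from 0.317 to 0.473 RPM at d0, and the libraries of 8 h and 16 h were spread widely.

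Counts of changed promoter regions came from limma on log2(RPM + 0.03) of single libraries, with 8 h as the planned baseline. A region was called at a Benjamini-Hochberg adjusted p under 0.05 over all 24753 regions and a log2 change above 1 in size. Between 8 h and 16 h no promoter region was called by limma, while of all regions 0.00808% were, 0.00404% higher and 0.00404% lower, and 55 (2.85%) had an unadjusted p under 0.05, against 6.45% of all regions. With voom weights on the recovered reads the count was again 0, with centred libraries 2 (all regions 0.372%). At day 1 43 promoter regions (2.23%) were called, all higher, against 6% of all regions, 5.98% higher and 0.0162% lower. That count rested on single libraries: it was 161 without the second 8 h library, 11 without the third, 84 without the first day 1 library and 8 without the second, and 12 with centred libraries (all regions 1.7%).

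At day 2 821 promoter regions (42.6%) were called against 8 h, 812 higher and 9 lower, while of all regions 38% were called, 36.9% higher and 1.15% lower. At day 4 599 (31.1%) were called, 536 higher (27.8%) and 63 lower (3.27%), against 37.1% of all regions, 30.5% higher and 6.59% lower. All 43 regions called at day 1 were called higher again at day 2. Of the 812 regions higher at day 2, 433 were also higher at day 4, which is 53.3% of the first set and 80.8% of the 536 higher at day 4. These comparisons share the 8 h libraries. Day 4 counts ran from 377 without the second day 4 library to 941 without the second 8 h library.

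The balance of rises and falls depended on the scaling. With centred libraries 228 promoter regions were called at day 2, 110 higher and 118 lower (all regions 27.6%, 14% and 13.6%), and 300 at day 4, 151 higher and 149 lower (all regions 31.8%, 16.2% and 15.6%). With quantile normalisation there were 72 higher and 123 lower at day 2, and 128 higher and 171 lower at day 4, where 21.6% and 31.7% of all regions were called. As deposited and centred, a smaller share of promoter regions than of all regions passed at day 4. Against the 3 recovered d0 libraries 830 promoter regions were called at day 4, 763 higher and 67 lower (all regions 49.1%, 41.3% higher and 7.83% lower), and 1019 at day 2 (all regions 49.4%). With centred libraries the balance at day 4 turned, with 114 higher and 234 lower (all regions 16.8% and 20.1%). Earlier, 56 promoter regions were higher at 16 h (all regions 9.91%) and 170 at day 1 (all regions 20.2%) than at d0. In XEN cells 283 were higher than at d0 (14.7%, all regions 36.5%) and 142 lower (7.37%, all regions 9.39%), and with centred libraries 79 and 571 (all regions 12.9% and 23.1%).

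**Figure D2:**
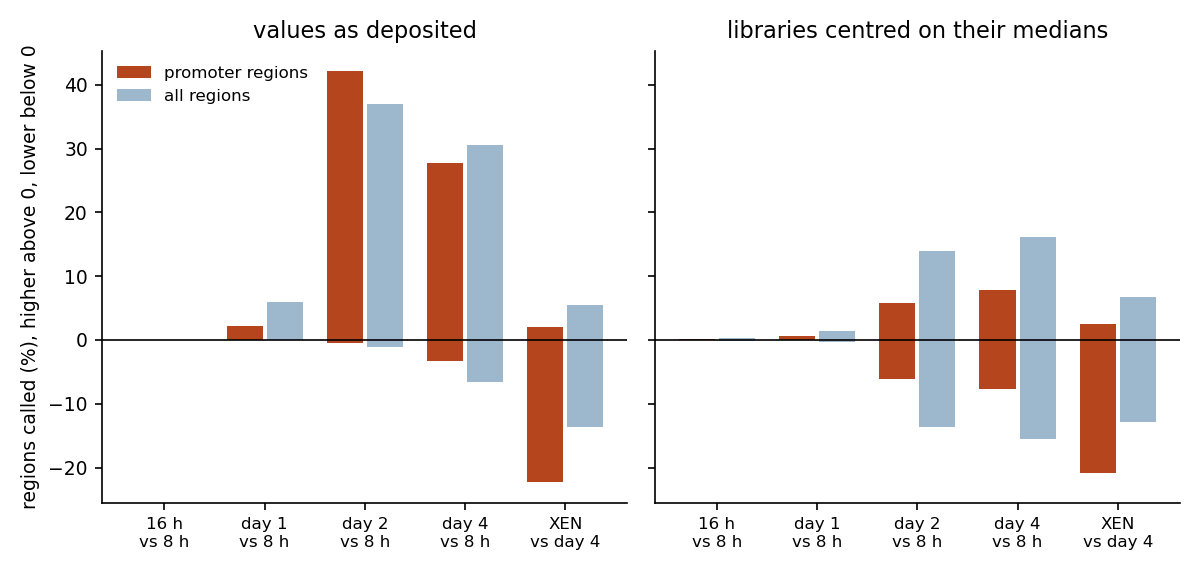
Percentage of promoter regions and of all recovered regions called higher (up) or lower (down) in each of 5 comparisons, on the deposited scale and with centred libraries. At day 2 promoter regions were called higher in 42.1% and lower in 0.467% as deposited, but in 5.71% and 6.12% once libraries were centred.

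CpG-rich and CpG-poor promoters differed in level and in how much the regions differed among themselves. In the d0 libraries the median CpG-rich region had 0.473, 0.317 and 0.44 RPM, and in the day 4 libraries 0.769 and 0.866 RPM. CpG-poor regions had 0.165, 0.141 and 0.179 RPM at d0 and 0.276 and 0.278 RPM at day 4. In both classes every day 4 library lay above every d0 library, although 1 of the 8 h libraries had 0.663 RPM at CpG-rich regions and 0.244 at CpG-poor ones. The median change from d0 to day 4 was 0.96 for CpG-rich and 0.70 for CpG-poor regions on the log2 scale, with an interquartile range of 0.47 and 1.02. For regions away from promoters that range was 1.5. The changes of CpG-rich promoters thus differed least among themselves. Levels followed the same order, with medians at d0 of 0.396, 0.158 and 0.0524 RPM for CpG-rich, CpG-poor and non-promoter regions. The part of level in these ranges was not tested.

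**Figure D3:**
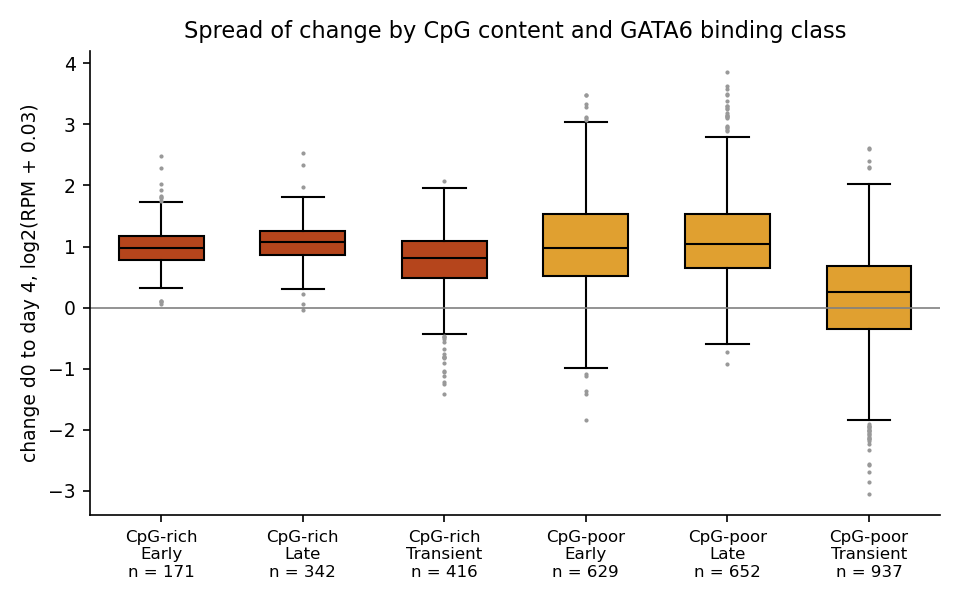
Log2 change from d0 to day 4 of the averaged columns for CpG-rich and CpG-poor promoter regions by GATA6 binding cluster, on the deposited scale, where boxes give the median and quartiles and whiskers 1.5 times the interquartile range. Medians of CpG-rich regions were 0.98 (Early&Constant, 171 regions), 1.07 (Late, 342) and 0.82 (Transient, 416), while CpG-poor regions had 0.98 (629), 1.04 (652) and 0.25 (937).

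As deposited, CpG-rich regions were called higher more often than CpG-poor ones, and with centred libraries less often. Of all regions 36.9% were higher and 1.15% lower at day 2, and 30.5% and 6.59% at day 4. With centred libraries these were 14% and 13.6%, and 16.2% and 15.6%. As deposited, the CpG-rich share higher at day 4 and the CpG-poor share higher at day 2 were near those of all regions. Of 579 CpG-rich promoter regions with libraries, 298 (51.5%) were called higher and 0 lower at day 2 by limma, but 12 (2.07%) and 4 with centred libraries. At day 4 179 (30.9%) were higher and 2 lower, with 17 (2.94%) and 8 after centring. Of 1348 CpG-poor regions 514 (38.1%) were higher and 9 lower at day 2, and 98 (7.27%) and 114 after centring. At day 4 357 CpG-poor regions (26.5%) were higher and 61 lower, and 134 (9.94%) and 141 after centring. A stricter definition of CpG-rich (ratio at least 0.75, GC at least 55%) left 409 regions with a median change of 1.02.

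Promoters of genes that every cell uses changed by about as much as promoter regions in general. The 14 ribosomal protein promoter regions had a median change from d0 to day 4 of 0.82, and 7 regions of housekeeping genes 0.91. Gapdh, a glycolytic enzyme often used as a reference, had 0.564, 0.506 and 0.532 RPM at d0, 0.413, 0.729 and 0.456 at 8 h, 0.878, 1.23 and 1.07 at day 2, 0.824 and 0.946 at day 4, and 0.756 and 0.277 in XEN cells. Its day 2 and day 4 libraries lay above every d0 and 8 h library, and the XEN libraries fell on either side of d0. Rps19, a protein of the small ribosomal subunit, had 0.686, 0.563 and 0.651 RPM at d0 and 1.27 and 1.37 RPM at day 4. Of the 9 ribosomal and 4 housekeeping regions with libraries, 3 and 1 were called higher at day 2 (all regions 36.9%). With centred libraries none of either set was called higher (all regions 14%).

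Open promoters and other open regions parted during induction. Among regions of the accessible class at d0, the median promoter region had 0.608, 0.378 and 0.527 RPM in the d0 libraries, 0.878, 1.23 and 1.09 at day 2, and 0.824 and 0.919 at day 4. Accessible regions away from promoters had 0.697, 0.312 and 0.424 RPM at d0, 0.367, 0.46 and 0.431 at day 2, and 0.176 and 0.182 at day 4. The 2 kinds were alike at d0, where the promoter median exceeded the other by -0.19, 0.25 and 0.30 on the log2 scale. Both were selected by their class at d0, so this likeness is not an independent result. The class held 33.5% of promoter regions and 5.35% of the others. The promoter median was higher by 0.42 to 0.50 at 8 h, by 1.19 to 1.36 at day 2 and by 2.05 and 2.16 at day 4. This difference within a library does not depend on scaling between libraries. In XEN cells it was 1.92 and 1.33. From d0 to day 4 the median change was 0.87 for accessible promoter regions and -1.26 for the others, whereas closed regions gained 1.15 at promoters and 1.09 elsewhere.

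Single regions showed the same parting in the limma fit. Of 668 accessible promoter regions with libraries, 184 (27.5%) were called higher and 33 (4.94%) lower at day 4 against 8 h. Those shares were near the 30.5% and 6.59% of all regions. With centred libraries the balance at promoters turned, to 9 higher (1.35%) and 57 lower (8.53%), against 16.2% and 15.6% of all regions. Of 1314 accessible regions elsewhere, 45 (3.42%) were higher and 594 (45.2%) lower as deposited, and 6 (0.457%) and 806 (61.3%) with centred libraries. As deposited, it was thus the accessible regions elsewhere that departed from all regions. Since the class may rest on the deposited d0 column, and so on the 8 h libraries as well, it may not be independent of this contrast.

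**Figure D4:**
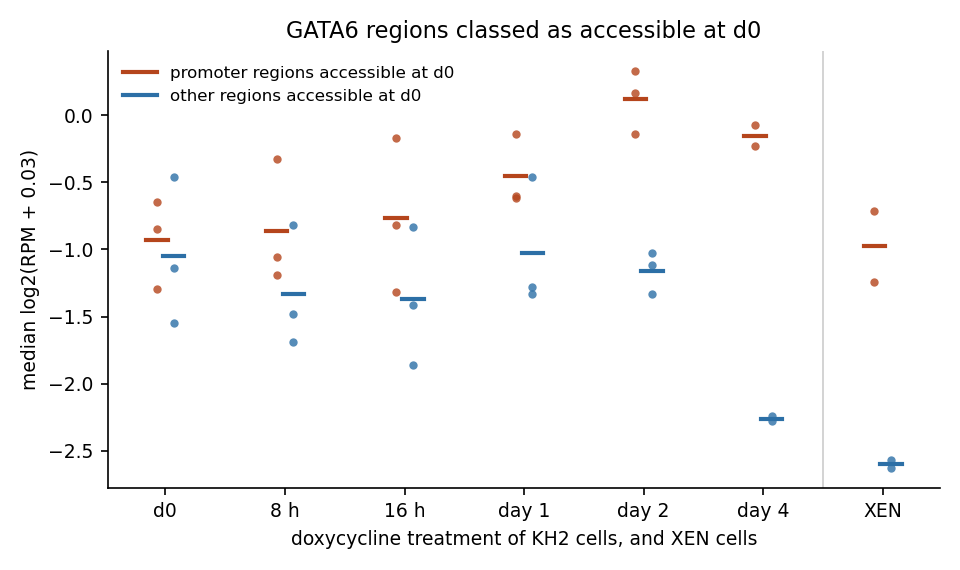
Median log2(RPM + 0.03) per library of regions that were accessible at d0, at promoters and away from them, by group. The 2 medians lay within 0.30 of each other in the d0 libraries and 2.05 and 2.16 apart at day 4.

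The direction of change at day 4 went with the cluster of GATA6 binding, at promoters as in other regions. Of 592 Late promoter regions with libraries 265 were higher and 0 lower at day 4 by limma (89 and 1 with centred libraries), and of 483 Early&Constant regions 162 were higher and 2 lower (48 and 8). Of 852 Transient regions 109 were higher and 61 lower (14 and 140). As deposited, 44.8% of Late, 33.5% of Early&Constant and 12.8% of Transient promoter regions were thus higher, and 0, 0.414% and 7.16% lower. Away from promoters 48.6%, 46.5% and 4.3% were higher in the same order, and 0.145%, 1.4% and 16.5% lower. Of all tested regions 30.5% were higher and 6.59% lower (16.2% and 15.6% with centred libraries). Of all 63 lower promoter regions 61 were Transient, or 96.8%, against 43% of all promoter regions. Of these 63, 53 lacked SOX17 binding (55.6% of all promoter regions), 38 were bound by PTFs at d0 (17.9%), and 2 were CpG-rich (29.5%). Regions that bound SOX17 were higher in 363 and lower in 10 of 857 cases (126 and 23 with centred libraries). Regions without it were higher in 173 and lower in 53 of 1070, a balance that turned to 25 and 126 with centred libraries. Of 350 regions with ectopic PTF binding 137 were higher and 0 lower by limma (48 and 2 with centred libraries), and of 341 regions bound by PTFs at d0 47 were higher and 38 lower (8 and 68). ATTGT was present near the summit in 54.3% of the 151 regions higher with centred libraries and in 36.9% of the 149 lower ones. The clusters come from ChIP-seq of the same induction, so binding and accessibility were measured separately but over the same days.

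The largest rises from 8 h to day 4 were at Scoc, Focad, Srgn, Akr1c19, Zfyve21, Glipr1, Hkdc1 and Stra6. Scoc, a short coiled-coil protein of the Golgi, had 0.026, 0.0176 and 0.055 RPM at d0, 0.0563, 0.0423 and 0.0237 at 8 h, 0.664, 1.16 and 1.04 at day 2, 0.653 and 0.791 at day 4, and 0.0832 and 0.139 RPM in XEN cells. It was low in every d0 and 8 h library, more than 10 times higher in every day 2 and day 4 library, and low again in XEN cells. The log2 change at day 4 was 3.43 ± 0.36 (SE, n = 3 and 2 libraries, limma adjusted p 2.7e-18), or 2.91 with centred libraries. Srgn, the proteoglycan serglycin, rose from 0.0797, 0.0611 and 0.0237 RPM at 8 h to 0.598 and 0.791 RPM at day 4, and had 0.368 and 0.277 RPM in XEN cells. Its change was 3.14 (limma adjusted p 9.8e-16). Focad, a focal adhesion protein, rose from 0.0375, 0.0564 and 0.019 to 0.553 and 0.62 RPM, a change of 3.22 (limma adjusted p 1.9e-16). In neither gene did the 8 h and day 4 libraries come near each other.

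Stra6, the cell surface receptor for retinol-binding protein, reached the highest level of the 8, with 0.0564, 0.145 and 0.179 RPM at d0, 0.464, 0.315 and 0.147 at 8 h, 0.734, 1.95 and 1.57 at day 2, 2.25 and 2.24 at day 4, and 1.35 and 1.09 RPM in XEN cells. Every day 4 and XEN library lay above every d0 and 8 h library. The change from 8 h was 2.87 (limma adjusted p 1.9e-13), or 2.35 with centred libraries. Glipr1, a secreted protein of the CAP family, rose from 0.131, 0.15 and 0.109 to 1.25 and 1.2 RPM, and remained at 1.14 and 0.877 RPM in XEN cells. Akr1c19, an aldo-keto reductase, and Hkdc1, a hexokinase, rose to 0.658 and 0.839 RPM and to 0.739 and 0.7 RPM. Of the 8 regions 7 bound SOX17, the exception being Zfyve21, 6 were closed at d0, and none was CpG-rich. Of all promoter regions 44.4% bound SOX17, 19.1% were closed and 29.5% were CpG-rich. A low start leaves more room for a rise, so the class at d0 is not independent of this ranking.

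The largest falls were at Mup6, Pcolce, Nanog, Cldn4, Fancd2os, Sept9, Lrrc2 and Mras. All 8 were accessible at d0, of the Transient cluster and without SOX17 binding. Nanog, a core factor of the pluripotency network, had 0.477, 0.237 and 0.22 RPM at d0, 0.314, 0.639 and 0.247 at 8 h, 0.157, 0.176 and 0.174 at day 2, 0.0402 and 0.0695 at day 4, and 0.0867 and 0.0693 RPM in XEN cells. Its day 2 libraries lay below, and its day 4 libraries far below, every d0 and 8 h library. The log2 change at day 4 was -2.26 (limma adjusted p 8e-09), or -2.78 with centred libraries. Cldn4, the tight junction protein claudin 4, stood at 0.863, 1.5 and 0.693 RPM at 8 h, at 0.607, 0.667 and 0.6 RPM at day 2, and at 0.141 and 0.262 RPM at day 4. Sept9, a septin of the cytoskeleton, had 1.24, 1.98 and 0.983 RPM at 8 h and 0.307 and 0.326 RPM at day 4. At both, most of the fall came between day 2 and day 4. Mup6 fell by 2.36, but it belongs to a family of near-identical urinary protein genes on chromosome 4, so its reads are uncertain. All 16 of these regions were called in the same direction in every one of 25 settings of the test.

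**Figure D5:**
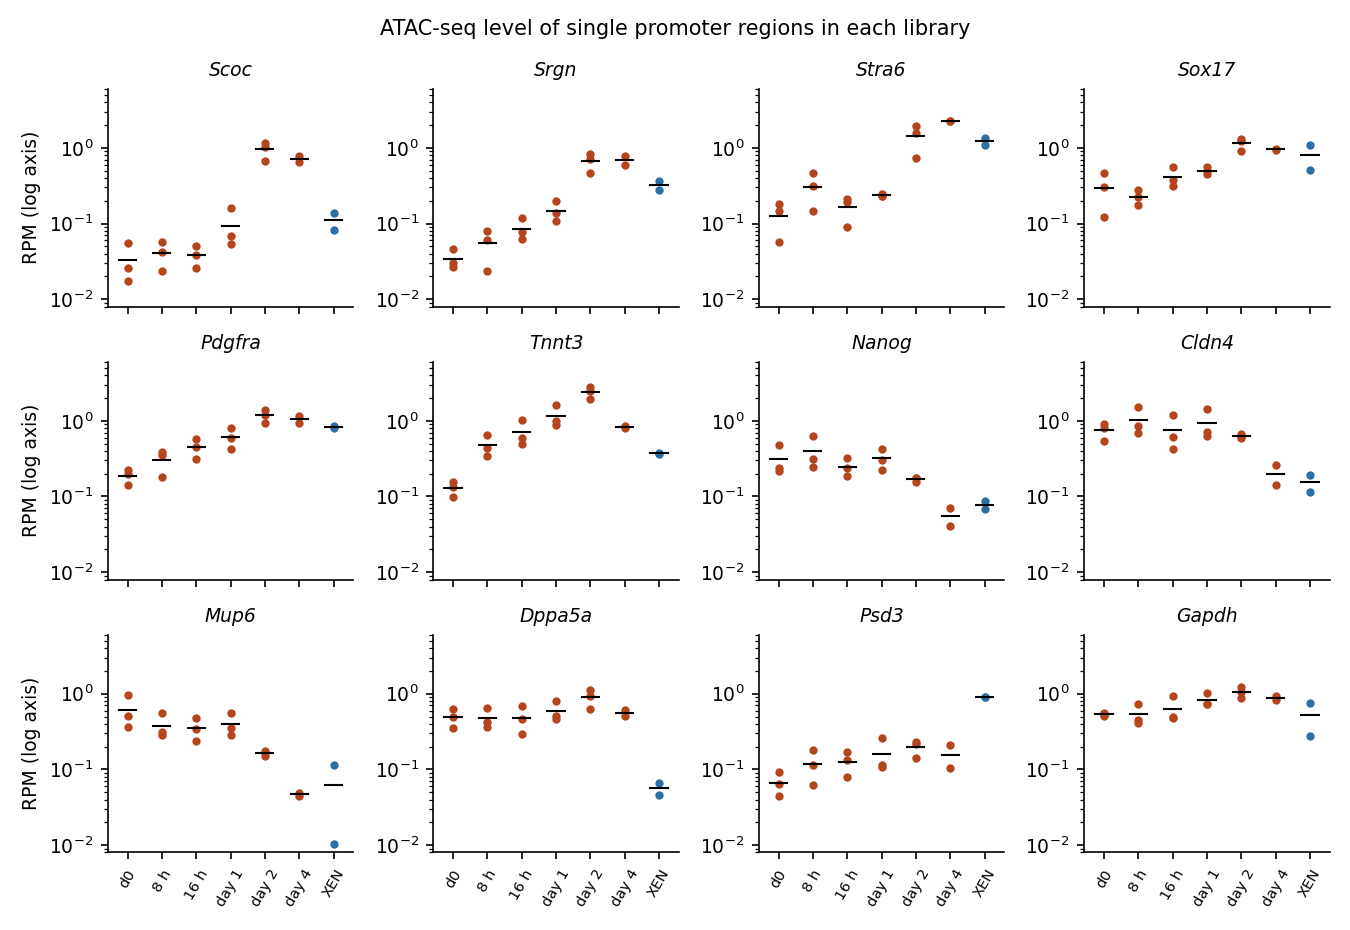
Accessibility in RPM (log axis) of 12 promoter regions in each recovered library by group, with 1 point per library and a line at the group mean. Scoc, Srgn, Stra6, Sox17 and Pdgfra rose to day 2 and day 4, Tnnt3 peaked at day 2, Nanog, Cldn4 and Mup6 fell, Dppa5a was low only in the XEN libraries (0.0659 and 0.0462 RPM), Psd3 was high only there (0.912 and 0.9 RPM), and Gapdh had 0.824 and 0.946 RPM at day 4.

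Over all 3147 promoter regions, averages named further genes, without a test. The largest rises from d0 to day 4 besides those above were at Phldb2, a protein that binds phosphoinositides (0.0681 to 1.19 RPM), Retreg1, a receptor for autophagy of the endoplasmic reticulum (0.104 to 1.47), BC025446 (0.0593 to 0.965), Arl14, a small GTPase (0.0906 to 1.22), and Mylk3, a kinase of myosin light chain (0.0909 to 1.19). The largest falls were at Fam196b (0.43 to 0.0338 RPM), 1700019D03Rik (0.919 to 0.117), Ssr2 (0.758 to 0.104), Cpsf4l (1.78 to 0.328) and Mtcl1 (0.886 to 0.164), all of the Transient cluster and bound by PTFs at d0. Cpsf4l was also among the 5 promoter regions with the highest d0 level, with Dmtn (1.78), Dstn (1.76), Map4 (1.66) and Hnrnpr (1.62 RPM).

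Promoters of primitive endoderm transcription factors rose. The list had 12 promoter regions at 9 genes. The 4 with libraries were all called higher than at 8 h at day 2 and day 4 (all regions 36.9% and 30.5%). With centred libraries 3 of 4 were higher at both times (all regions 14% and 16.2%). Against d0 all 4 were again called higher at both times as deposited, but none by limma with centred libraries. The median change of the 12 regions from d0 to day 4 was 1.67, against 0.75 for all regions. The Sox17 region just downstream of the start (chr1:4493473-4493867) had 0.464, 0.123 and 0.307 RPM at d0, 0.178, 0.277 and 0.223 at 8 h, 0.909, 1.3 and 1.23 at day 2, 0.94 and 0.967 at day 4, and 1.1 and 0.508 RPM in XEN cells. Every library from day 2 on, XEN included, lay above all d0 and 8 h libraries. The change from 8 h to day 4 was 1.96 ± 0.36 (SE, limma adjusted p 6.2e-07), or 1.44 with centred libraries, and 1.92 at the other Sox17 start.

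For the factors that follow only averages were used. Gata6 itself averaged 0.559 RPM at d0, 3.49 at day 4 and 1.85 in XEN cells, in a region that shares 0 bases with the coding exons carried by the cassette. Hnf4a went from 0.0591 to 0.702 RPM, Gata4 from 0.0265 to 0.277 RPM with 0.446 RPM at day 2, and Foxa2 from 0.419 to 1.73 RPM. Hhex stood at 0.257 RPM at d0, 0.968 at day 2 and 0.447 at day 4. Otx2, a homeobox factor of anterior endoderm and neural tissue, had 0.159 RPM at d0 and 0.158 RPM at day 4.

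Promoters on the list of receptors, endocytic proteins and lysosomal proteases of primitive endoderm rose too. Of 6 regions with libraries 5 were called higher at day 4 (all regions 30.5%), and 3 with centred libraries (all regions 16.2%). The called regions lay at Pdgfra and at the lysosomal proteases Lgmn and Ctsl, each protease with more than 1 region. Pdgfra was thus the only receptor called. The median change of all 13 regions from d0 was 1.83. Pdgfra, the receptor tyrosine kinase that marks primitive endoderm, had 0.221, 0.141 and 0.197 RPM at d0, 0.352, 0.39 and 0.18 at 8 h, 0.945 and 1.14 at day 4, and 0.846 and 0.808 RPM in XEN cells, at chr5:75150851-75152483. Its day 4 and XEN libraries lay above all d0 and 8 h libraries. Its change from 8 h was 1.73 ± 0.36 (SE, limma adjusted p 1.3e-05). Of the lysosomal proteases, Lgmn, legumain, rose from 0.525, 0.357 and 0.176 RPM at 8 h to 2.39 and 2.53 RPM at day 4, and Ctsl, cathepsin L, by 2.21 on the log2 scale. By averages the 3 regions of the endocytic adaptor Dab2 changed by 2.28, 2.14 and 2.75 from d0 to day 4, the receptor Cubn by 1.83 and the receptor Lrp2 by 1.16.

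Basement membrane promoters rose as well on the deposited scale. The 9 regions had a median change from d0 to day 4 of 1.12, against 0.75 for all regions. Of 7 with libraries 5 were called higher at day 4 (all regions 30.5%), but 1 (14.3%) with centred libraries (all regions 16.2%). That one was P4ha1, the catalytic subunit of collagen prolyl hydroxylase, with 0.619, 0.931 and 0.579 RPM at 8 h and 2.78 and 2.89 RPM at day 4. The laminin genes Lamb2 (2 regions), Lamb1 and Lamc1 were called only on the deposited scale. Lamc1 had 0.961, 1.57 and 1.04 RPM at 8 h and 2.32 and 2.62 RPM at day 4, a change of 1.06 that was 0.54 after centring. Secreted proteins of visceral endoderm had 7 regions and a median change of 1.12. Stra6 was the only 1 of 3 called at day 4 as deposited (all regions 37.1%). By averages the transthyretin gene Ttr had 0.0387 RPM at d0, 0.437 at day 4 and 0.631 in XEN cells. Apoe, an apolipoprotein, went the other way, with 1.45, 0.981 and 1.34 RPM at d0, 0.814 and 0.716 at day 4, and 0.357 and 0.254 RPM in XEN cells, and was called lower at day 4 only with centred libraries (-1.23).

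Promoters of pluripotency factors moved in both directions. The list had 28 regions at 23 genes with a median change from d0 to day 4 of 0.21, against 0.75 for all regions. Of 21 with libraries 1 was called higher at day 4 (Lin28a) and 2 lower (Nanog and Dppa3), against 30.5% and 6.59% of all regions. With centred libraries none was higher and 3 (14.3%) were lower, Nr5a2 being added, against 16.2% and 15.6% of all regions. At day 2 10 (47.6%) were higher and 1 (4.76%) lower as deposited, against 36.9% and 1.15% of all regions. After centring 0 were higher and 2 (9.52%) lower, against 14% and 13.6% of all regions. Dppa3, a maternal factor of ES cells, had 0.291, 0.404 and 0.242 RPM at 8 h and 0.151 and 0.0962 RPM at day 4. By averages the level of Pou5f1 was 1.01 at d0 and 0.226 RPM at day 4, and that of Nr0b1 0.595 and 0.282 RPM. By contrast Klf4 had 0.864, 0.739 and 1.03 RPM in the d0 libraries and 1.71 and 1.81 RPM at day 4, and Klf5 averages went from 0.809 to 1.75 RPM. Both are Krüppel-like factors with CpG-rich promoters. Nr5a2 had 2 promoter regions that moved apart: 1 went from 0.369 to 0.137 RPM and the other from 0.0626 to 0.18 RPM by averages.

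Signalling genes had calls in both directions. In the FGF and MAPK pathway, 12 regions had a median change of 0.56 from d0 to day 4. Of 7 with libraries 3 were higher at day 4 as deposited (42.9%, all regions 30.5%). They were the kinase Mapk3, the ligand Fgf3 and the adaptor Grb2. None was higher after centring (all regions 16.2%). Of 2 regions of Etv1, an ETS factor downstream of FGF, 1 was lower on both scales (all regions 6.59% and 15.6%). Etv1 had 0.169, 0.263 and 0.195 RPM at 8 h, 0.116 and 0.0481 RPM at day 4, and 0.0381 and 0.0462 RPM in XEN cells. In the NODAL, BMP and WNT pathways, 16 regions had a median change of 0.69. Of 7 with libraries the WNT receptor Fzd5 was the only 1 called at day 4 as deposited, at 1.32 (all regions 37.1%). Tcf7l1, a repressor of WNT targets, had 0.838 RPM at d0 and 0.36 RPM at day 4 by averages, and was called lower against 8 h only after centring. There were 8 promoter regions of developmental regulators of other lineages, with a median change of 0.69. None of the 3 with libraries was called at day 4 by limma on either scale (all regions 37.1% and 31.8%).

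Some promoters were called higher at day 2 but not at day 4. The largest of these rises from 8 h to day 2 were at Tnnt3, Qdpr, St7 and Slc35f2. Tnnt3, a troponin of fast skeletal muscle, had 0.0998, 0.154 and 0.133 RPM at d0, 0.441, 0.649 and 0.347 at 8 h, 1.04, 0.589 and 0.496 in the 16 h libraries, and 0.887, 1.61 and 1 in those of day 1. It reached 1.92, 2.8 and 2.5 RPM at day 2, and had 0.804 and 0.86 RPM left at day 4 and 0.371 and 0.369 RPM in XEN cells. It stood above all d0 libraries from 8 h on, and was highest in the 3 day 2 libraries. Its day 4 libraries lay below those of day 2 but above all d0 and 8 h libraries. The change from 8 h to day 2 was 2.29 ± 0.32 (SE, limma adjusted p 2.3e-11). Qdpr, a reductase of biopterin, had 0.0891, 0.127 and 0.038 RPM at 8 h, 0.45, 0.372 and 0.513 at day 2, and 0.171 and 0.176 RPM at day 4. No fall from 8 h was called at day 2 and not at day 4.

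Tnnt3 was also the largest early change. Between d0 and 8 h, a comparison added once the d0 libraries had been recovered, 24 promoter regions (1.25%) were called by limma, 23 higher and 1 lower, against 4.78% of all regions, 4.45% higher and 0.335% lower. Tnnt3 changed by 1.65 ± 0.33 (SE, adjusted p 0.00011), and other higher regions were at Gip, an incretin hormone (1.62), Abi3 (1.45) and Mogat2, an acyltransferase (1.44). Gip had 0.022, 0.088 and 0.105 RPM at d0 and 0.300, 0.287 and 0.199 RPM at 8 h, with no overlap. Of the 23 higher regions 16 were closed at d0 and none was CpG-rich (19.1% and 29.5% of all promoter regions). The change and the class both depend on the level at d0, so they are not independent. The 1 lower region was at Gpx2, a glutathione peroxidase, with 0.152, 0.132 and 0.174 RPM at d0 and 0.061, 0.061 and 0.052 RPM at 8 h. With centred libraries 7 were higher and 12 lower (all regions 3.46%). The count was 10 without the first d0 library, and 8, 7 and 69 without the first, the second and the third 8 h library.

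Compared with day 4, XEN cells had lower accessibility at many promoter regions. By limma 467 promoter regions (24.2%) were called, 38 higher and 429 lower, against 19.1% of all regions, 5.52% higher and 13.6% lower. With centred libraries 47 were higher and 402 lower (all regions 19.6%, 6.71% and 12.9%), and with quantile normalisation 67 and 179 (18.1% of all regions called). Of 579 CpG-rich regions 0 were higher and 192 lower by limma (1 and 178 with centred libraries), and of 1348 CpG-poor ones 38 and 237 (46 and 224). Of the 429 lower regions 187 (43.6%) were among those higher at day 4 than at 8 h. The count was 186 and 119 without the first or second day 4 library, and 95 without the second XEN library, the one of 43.3 M reads, where centred counts were 218 without it and 791 without the first. Promoter regions took 14.6% ± 2.64 (SD, n = 2) of the reads in recovered regions in XEN cells, against 18% ± 0.526 (SD, n = 2) at day 4, and the part of this share in the result was not tested.

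The genes at the ends of this comparison were of different kinds. Dppa5a, an RNA-binding protein of pluripotent cells, had 0.634, 0.352 and 0.486 RPM at d0, 0.634, 1.12 and 0.925 at day 2, 0.603 and 0.508 at day 4, and 0.0659 and 0.0462 RPM in XEN cells. It was high in all KH2 libraries and low in both XEN libraries, with a difference of -2.77 ± 0.40 (SE, limma adjusted p 1.7e-09). Zfp872, a zinc finger protein, had 0.809 and 0.791 RPM at day 4 and 0.107 and 0.0693 RPM in XEN cells, a difference of -2.83. Cd38, an ectoenzyme that hydrolyses NAD, had 1.54 and 1.42 against 0.267 and 0.208 RPM, and Scp2, a sterol carrier, 0.995 and 1.06 against 0.125 and 0.208 RPM. Of 21 pluripotency regions with libraries 8 (38.1%) were lower in XEN cells, among them L1td1, Lin28a, Esrrb and Dppa5a (all regions 13.6%). With centred libraries 7 (33.3%) were lower (all regions 12.9%), and none was higher by limma on either scale.

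Psd3, an exchange factor for ARF6, had 0.106 and 0.208 RPM at day 4 and 0.912 and 0.9 RPM in XEN cells. At d0 it had 0.0651, 0.044 and 0.0917 RPM, so that XEN libraries stood above every KH2 library. The difference from day 4 was 2.38 (limma adjusted p 3.8e-07). Add2, an adductin of the membrane skeleton, had 0.186 and 0.23 against 1.16 and 1.18 RPM, Utrn, the dystrophin relative utrophin, 0.0301 and 0.0534 against 0.35 and 0.185 RPM, and Gkn2, gastrokine 2, 0.121 and 0.176 against 0.61 and 0.669 RPM. These 4 regions were of the Late cluster, closed at d0 and without SOX17 binding (31.6%, 19.1% and 55.6% of all promoter regions).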

How the data were processed

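ATAC-seq reads were processed by the authors before deposit. The submitters' processing notes name bcl2fastq, cutadapt, Bowtie2, SAMtools and mm10. The deposited RPM values are reads in each GATA6-bound region scaled to a common library size, averaged by the authors over the libraries of a group and not divided by region width. The GATA6 motif score was deposited too, as the FIMO score of the best match in a region, with no value where none passed. Binding clusters, histone classes and accessibility at d0 are the authors' labels. The 52 columns of ChIP-seq, input and ENCODE signal in the table were not used here.

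From averages kept to more than 12 digits, the reads of single libraries were recovered as whole numbers within 1e-08 reads, with library sizes found on the 2500 lowest values. On simulated averages of 1, 2 and 3 libraries 100% of values came back right, and values shifted at random gave 0 solutions. Regions without such digits have averages only and no test. The d0 average was recomputed as 3 times the deposited d0 column minus the 8 h and 16 h columns. Library numbers follow no label.

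Calls used limma 3.58.1 (R 4.3.3) on log2(RPM + 0.03), a scale that understates changes of low regions, with 1 fit over all groups and Benjamini-Hochberg adjustment over 24753 regions. The planned fit had the 16 libraries from 8 h on, and the 3 recovered d0 libraries were added after the files were seen. The script was tested on simulated data. Tables were handled in Python 3.11.15. A p-value here tests a difference between group means against the spread between libraries within groups. That spread was pooled over all groups of the fit and moderated across regions. Depth limits the precision at low regions most in the XEN library of 43.3 M reads.

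Members and gene lists were chosen with earlier results of these data known. Genes were named by fixed ranks: the 8 largest called rises and falls from 8 h to day 4, the 5 largest of each by averages, the 4 largest at day 2 but not day 4 and between XEN cells and day 4, up to 4 per gene list, all of the transcription factor and pluripotency lists, and the 5 highest at d0. Other names, among them Gapdh, Rps19, Gip, Gpx2 and the feeder markers, were chosen after their values were seen. Some regions are not reported here. Alternatives tried were pseudocounts of 0.006 and 0.15 RPM, a filter that removed the lowest 25% of regions, centring, quantile normalisation, voom weights, a midpoint limit of 500 bases, a stricter CpG definition, and leaving out each library.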

Additional observations from a re-analysis of the deposited data

How the results depend on the processing

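Among summary values for promoter regions, 80 stayed within their limits under the alternatives, 28 moved and 5 reversed. Counts of calls that moved were as follows. Between 8 h and 16 h, 0 became 2 with centring and 4 with quantile normalisation, and 59 between d0 and 16 h. At day 1, 43 became 5 with a pseudocount of 0.15, 12 with centring, 15 with quantile normalisation and 171 against d0. At day 2, 821 became 468 with a pseudocount of 0.15, 228 with centring and 195 with quantile normalisation. At day 4, 599 became 246, 300 and 299 in the same order. For XEN against day 4, 467 became 247 with a pseudocount of 0.006, 195 with one of 0.15, 246 with quantile normalisation and 240 with voom weights. For 8 h against d0, 24 became 0 with a pseudocount of 0.15 and 12 with a midpoint limit of 500 bases.

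Leaving out 1 library at a time, counts ran from 0 to 2 at 16 h, from 8 to 161 at day 1, from 574 to 1125 at day 2, from 377 to 941 at day 4, from 95 to 496 for XEN against day 4 and from 7 to 69 for 8 h against d0. In centred libraries they ran from 195 to 282 at day 2, from 300 to 330 at day 4 and from 218 to 791 for XEN cells. The cause of these differences was not tested.

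The median change against the deposited d0 column, 0.34 at day 1, reversed to -0.0547 with centred columns and -0.0895 with quantile normalisation. At day 2, 0.87 moved to 0.0414 with centring and reversed to -0.17 with quantile normalisation. At day 4, 0.67 moved to 0.73 with a pseudocount of 0.006, 0.47 with one of 0.15, 0.11 with centring, 0.0139 with quantile normalisation, 0.73 with a midpoint limit of 500 bases and 0.82 with d0 recomputed. In XEN cells, 0.06 reversed to -0.43 with centring and to -0.23 with quantile normalisation, and moved to 0.24 with d0 recomputed. Against the recomputed d0, the median change of CpG-rich regions at day 4, 0.96, moved to 1.02 with the stricter CpG definition. For 68 calls at named regions, 1569 of 1770 alternative values remained called, 201 no longer passed and 0 changed direction.

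No paired analysis was possible because the columns carry no replicate numbers and recovered libraries stand in arbitrary order.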

Other observations

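Promoter regions did not fall equally on all chromosomes between day 4 and XEN cells. The median log2 difference of the promoter regions on a chromosome was -0.79 on chromosome 11, -0.77 on chromosome 17 and -0.76 on chromosome 15, but -0.20 on chromosome 16, -0.15 on chromosome 6 and -0.11 on chromosome 19. The remaining chromosomes lay between -0.23 and -0.73, with -0.34 on the X chromosome.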
